A study of Mus musculus with 14 samples.

Results

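The integrin and laminin chains are the genes whose platform symbol names an integrin alpha chain (Itga), an integrin beta chain (Itgb) or a laminin alpha, beta or gamma chain (Lama, Lamb, Lamc). The set was chosen with earlier results of these data known, but its members were taken by name alone. On the array 34 of the 18193 genes met the rule, 24 integrin chains (16 alpha and 8 beta) and 10 laminin chains. Together they have 73 probe sets, and the brightest probe set of a gene, by its mean over 14 arrays, stands for the gene. Of the 34 chains, 25 passed the filter on dim genes and were tested, 16 integrin and 9 laminin chains. The other 9 were Itga1, Itga8, Itga10, Itgam, Itgax, Itgb3, Itgb6, Itgb8 and Lamc3. Itga11 and Itgad were not analysed here.

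Laminins are secreted trimers of an alpha, a beta and a gamma chain, and they form the sheet to which the other proteins of a basement membrane bind. Integrins are receptors of an alpha and a beta chain that span the cell membrane, hold cells to laminin, fibronectin, collagen or partner cells, and link them to the actin cytoskeleton. In the early mouse embryo the trimer of Lama1, Lamb1 and Lamc1 is a first component of the basement membranes. Itga6 paired with Itgb1 is a main laminin receptor of embryonic stem cells.

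The study followed mouse cells between fibroblasts and pluripotency, with 1 Affymetrix array per sample. The 2i iPSCs were clones 2B1 and 5C5 of partial induced pluripotent stem cells (female, C57BL/6) after conversion in 2i medium, which blocks the kinases MEK and GSK3. Embryonic stem cells (ESCs) of the Nanog-GFP transgenic line (male, C57BL/6) and of the wild-type EBRTcH3 line (male, 129sv), kept in leukemia inhibitory factor (LIF) and serum, gave 1 array each. Mouse embryonic fibroblasts (MEFs) from Nanog-GFP transgenic embryos (mixed sex, C57BL/6) were grown without LIF and gave 1 array. Their embryos were 12.5 days post coitum (dpc) by the sample's title and 13.5 dpc by the design text of the series. The untreated partial iPSCs, clones 2B1 and 5C5 in LIF and serum, gave 1 array each. Partial iPSCs are cells whose reprogramming halted short of genuine pluripotency. A further 7 arrays held 2B1 partial iPSCs in LIF and serum after retroviral transduction with Cnot1, Cnot2, Cnot3, Trim28, the 3 Cnot factors together (Cnot123), Nanog or empty vector, 1 array each. The Cnot factors belong to the Ccr4-Not complex, which shortens poly(A) tails, and Trim28 is a corepressor. The series addressed what carries partial iPSCs to genuine pluripotency. The 2i iPSCs descend from the same clones as their controls and differ from them in medium as well as in state. The ESC lines differ from the clones in sex and origin, and from each other in strain.

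Values are log2 RMA signals as deposited, on which a difference of 1 is 2-fold. Pairs of values are given as 2B1 then 5C5 for the clones and as Nanog-GFP then EBRTcH3 for ESCs. Levels of different genes come from different probe sets and are not compared. The pluripotency marker Zfp42 was at 12.69 and 12.26 in 2i iPSCs, at 12.37 and 12.89 in ESCs and at 2.55 in MEFs, against 2.57 and 2.38 in untreated partial iPSCs. Fibroblast markers, a list of 10 genes, had summed linear signals of 14976 and 14697 in 2i iPSCs, 357 and 310 in ESCs and 81439 in MEFs, against 11122 and 8100 in untreated partial iPSCs. The transduced arrays form a block with lower array means than the rest (5.87 to 5.88 against 6.09), so they were compared with each other. On the arrays labelled with an introduced factor, no probe set of that factor was more than 0.30 above the empty vector array, over 13 probe sets (those of Cnot1 are annotated to 2 genes), and the Nanog probe set was 0.99 below it on the array labelled Nanog. Whether these probe sets lie within the introduced cDNA is not given in the sources used here, and a probe set outside it checks nothing. In such bulk samples, fewer cells of a type and less RNA per cell cannot be told apart.

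**Figure D1:**
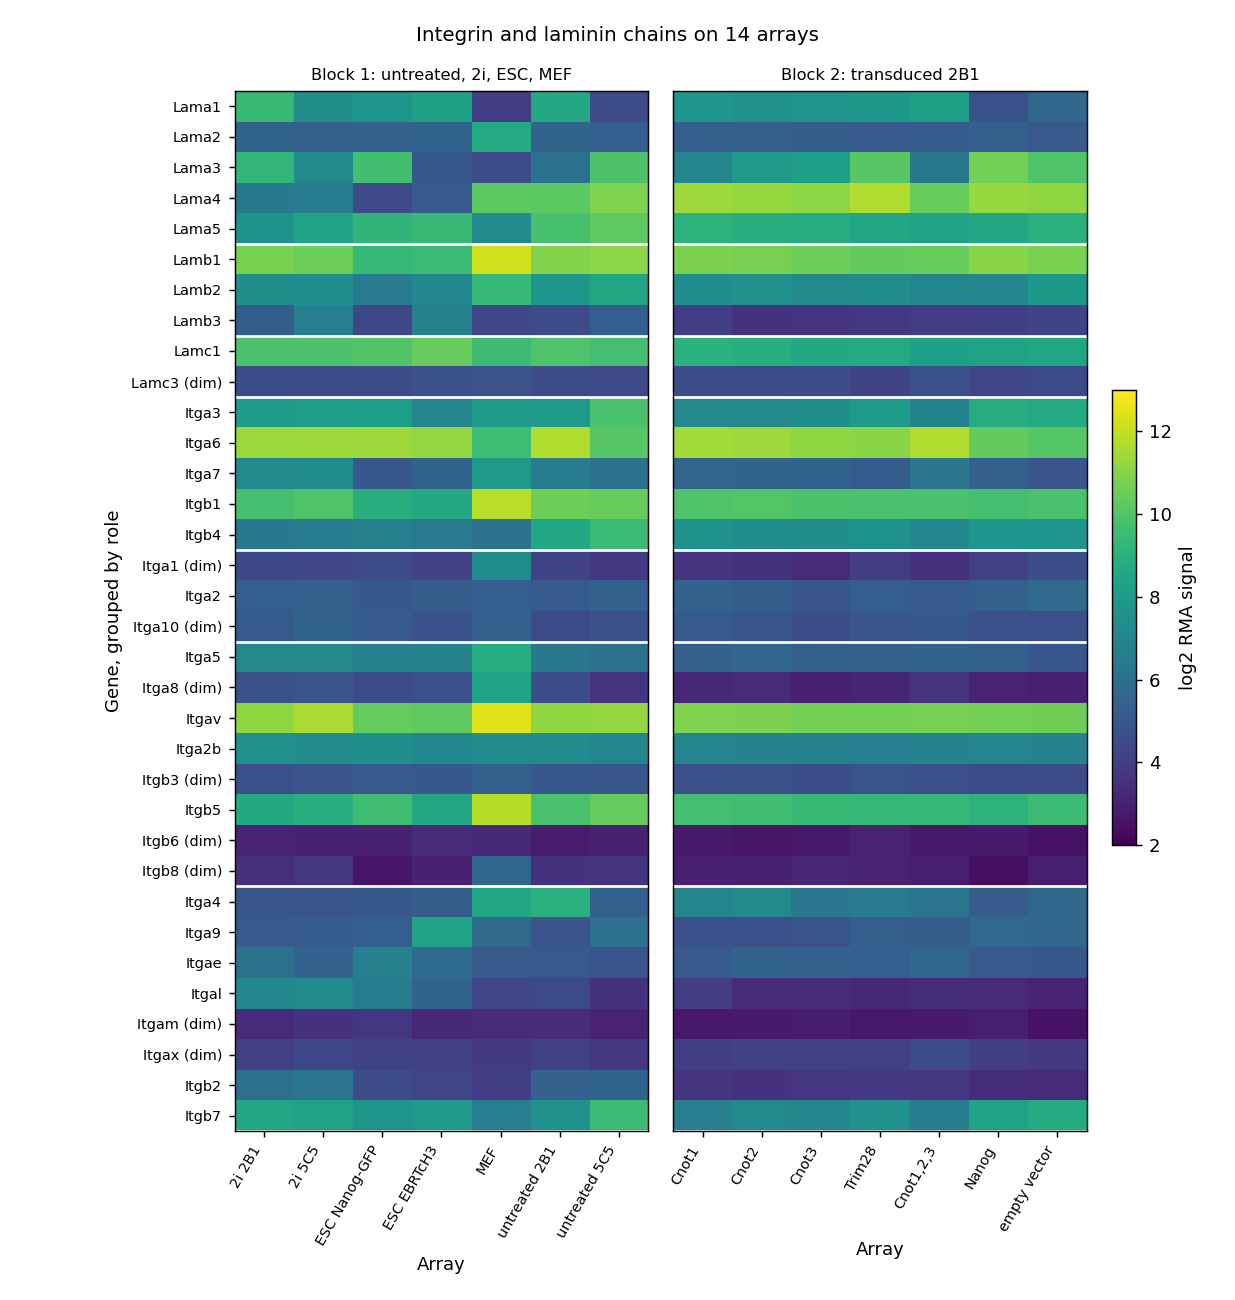
Log2 RMA signal (colour) of the 34 integrin and laminin chains, in rows grouped by role, on the 14 arrays in columns, with the transduced block at the right and chains below the dim filter marked. Lama4 is bright in MEFs, in the untreated partial clones and throughout the transduced block, and dim in 2i iPSCs and ESCs, while Lama2 is bright in MEFs alone (8.71).

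Promoter windows were read for 5 chains that the results below turn on, to show what lies before the start of chains that moved with cell state (Lamb1, Lama5, Itgb1) and of chains that separated the clones (Itga4, Itgb7). Each is the 250 bases before the RefSeq start, 5′ to 3′ on the gene's strand, from RefSeq in build GRCm38.p6. Capitals mark matches to GGGCGG (a GC box), CCAAT and TATAAA on either strand. The windows are Lamb1 at chr12:31265043-31265292 (plus strand), Lama5 at chr2:180225860-180226109 (minus), Itgb1 at chr8:128685404-128685653 (plus), Itga4 at chr2:79255176-79255425 (plus) and Itgb7 at chr15:102231936-102232185 (minus).
Lamb1: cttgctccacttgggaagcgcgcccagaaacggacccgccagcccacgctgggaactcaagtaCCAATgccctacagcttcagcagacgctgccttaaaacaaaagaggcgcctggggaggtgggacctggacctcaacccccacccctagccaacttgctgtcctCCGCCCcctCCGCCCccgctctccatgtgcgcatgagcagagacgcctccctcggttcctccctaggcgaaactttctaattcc
Lama5: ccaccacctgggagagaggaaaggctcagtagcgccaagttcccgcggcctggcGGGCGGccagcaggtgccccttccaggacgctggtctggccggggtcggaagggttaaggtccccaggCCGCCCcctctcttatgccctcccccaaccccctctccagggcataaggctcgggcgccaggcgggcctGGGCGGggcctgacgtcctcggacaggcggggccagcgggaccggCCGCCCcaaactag
Itgb1: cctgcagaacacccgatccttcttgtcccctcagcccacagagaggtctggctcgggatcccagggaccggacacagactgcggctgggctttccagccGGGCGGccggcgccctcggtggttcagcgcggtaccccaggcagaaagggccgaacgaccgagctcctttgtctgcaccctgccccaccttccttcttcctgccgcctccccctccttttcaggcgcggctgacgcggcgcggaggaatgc
Itga4: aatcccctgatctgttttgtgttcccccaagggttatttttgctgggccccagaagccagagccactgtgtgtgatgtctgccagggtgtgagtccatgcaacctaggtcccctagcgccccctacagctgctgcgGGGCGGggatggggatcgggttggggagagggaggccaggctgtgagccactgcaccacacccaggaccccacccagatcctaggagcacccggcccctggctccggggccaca
Itgb7: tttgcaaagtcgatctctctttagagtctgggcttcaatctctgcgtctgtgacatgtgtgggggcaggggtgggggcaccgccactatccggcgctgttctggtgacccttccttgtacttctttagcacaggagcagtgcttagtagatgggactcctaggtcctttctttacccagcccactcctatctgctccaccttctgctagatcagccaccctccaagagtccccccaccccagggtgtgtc
Lama5 has 4 GC boxes, Lamb1 has 2 GC boxes and 1 CCAAT, Itgb1 and Itga4 have 1 GC box each, and Itgb7 has no match in its window. Over the 32851 windows of all genes, 32.7% hold a GC box, 33.8% hold CCAAT and 12.4% hold TATAAA. The windows of Lamb1, Lama5 and Itgb1 have 14, 19 and 21 CpG dinucleotides, those of Itga4 and Itgb7 have 6 and 5, and the median of all windows is 6. GC content is 62.0% for Lamb1, 72.4% for Lama5, 68.0% for Itgb1, 64.0% for Itga4 and 56.0% for Itgb7, against a median of 52.4%. Windows were found for 22 of the 34 chains, and only these 5 were read. They were picked with the results known, so they do not compare CpG or GC content between the 2 kinds of chain. These matches describe letters and are not evidence of a bound factor.

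After conversion in 2i, the chains Lama4, Lama5 and Itgb4 were lower and Itgal was higher than in untreated partial iPSCs, and the remaining 21 tested chains did not pass the test. Across all 12663 genes tested, 6.00% were called in either direction (3.55% higher, 2.46% lower), against 4 of 25 chains. A call is an adjusted p below 0.05 in limma's test with Benjamini-Hochberg adjustment over all genes tested. The median log2 fold change was 0.09 over the 25 chains and 0.03 over all genes. With 1 array per clone or line, these p-values measure the spread between clones and lines only. With either 2i array left out, none of these 4 chains was called by limma, and over all genes 39 were called higher and 11 lower without 2i 2B1, and 31 and 12 without 2i 5C5.

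Lama4, the alpha chain of laminins of vessels, muscle and mesenchyme, was at 6.44 and 6.62 in 2i iPSCs, at 4.42 and 5.13 in ESCs and at 10.22 in MEFs, against 10.23 and 10.89 in untreated partial iPSCs. Both pluripotent groups lay far below the partial clones, and the fibroblasts were level with 2B1. Its log2 fold change was -4.03 in 2i iPSCs (SE 0.35, limma adjusted p = 0.0076) and -5.79 in ESCs (SE 0.35, limma adjusted p = 0.0015), each against untreated partial iPSCs. Without 2i 2B1 or 2i 5C5 the 2i value stayed at -3.94 or -4.12 with a limma adjusted p of 0.0987 or 0.0930. Its bright probe sets ran from -4.03 to -1.81 for 2i iPSCs and from -5.79 to -1.41 for ESCs, all below 0 but unequal in size.

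Lama5, the alpha chain of the laminin found in most epithelial basement membranes and used as a substrate for pluripotent cells, was at 7.63 and 8.42 in 2i iPSCs, 9.20 and 9.45 in ESCs and 7.30 in MEFs, against 9.79 and 10.29 in untreated partial iPSCs. The 2i arrays lay below both ESC arrays, but this difference of -1.31 did not pass the test (limma adjusted p = 0.142). The fold change was -2.02 for 2i iPSCs against untreated partial iPSCs (SE 0.34, limma adjusted p = 0.0365), and the call was lost without any 1 of the 4 arrays compared (limma adjusted p = 0.0731 to 0.210). Against the partial clones, ESCs differed by -0.71 (limma adjusted p = 0.218), a difference that did not pass the test.

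Itgb4 is the beta chain that pairs with Itga6 in hemidesmosomes, the laminin anchors of epithelia. It was at 6.38 and 6.65 in 2i iPSCs, 6.77 and 6.51 in ESCs and 6.15 in MEFs, against 8.60 and 9.48 in untreated partial iPSCs. The partial clones stood above all 5 other arrays of the block. The fold changes against untreated partial iPSCs were -2.52 in 2i iPSCs (SE 0.34, limma adjusted p = 0.0222) and -2.40 in ESCs (SE 0.34, limma adjusted p = 0.0128). Its partner Itga6 was at 11.32 and 11.38 in 2i iPSCs, 11.40 and 11.23 in ESCs and 9.60 in MEFs, against 11.69 and 10.13 in untreated partial iPSCs. The untreated 5C5 clone stood below the 2i and ESC arrays and untreated 2B1 above them, and the differences of 0.44 for 2i iPSCs (95% interval -0.86 to 1.75) and 0.41 for ESCs (-0.90 to 1.71) did not pass the test.

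Itgal, the alpha chain of the leukocyte integrin that binds Icam1, was at 7.14 and 7.26 in 2i iPSCs, at 6.68 and 5.49 in ESCs and at 4.32 in MEFs, against 4.48 and 3.63 in untreated partial iPSCs. Both pluripotent groups lay above both partial clones. Itgal passed the filter on dim genes through the 2i and ESC arrays alone, the 4 on which it is high, so some difference was built into its being tested. The fold change was 3.14 for 2i iPSCs (SE 0.48, limma adjusted p = 0.0301) and 2.03 for ESCs (SE 0.48, limma adjusted p = 0.0487). The 2i call was lost without any 1 of the 4 arrays compared (limma adjusted p = 0.0570 to 0.207). The ESC call was lost without any 1 array other than EBRTcH3 (limma adjusted p = 0.0731 to 0.151) and under 4 other settings (limma adjusted p = 0.0504 to 0.120). Of the leukocyte markers, 7 listed and 3 tested, none was called in any of the 3 comparisons. All 3 were higher in ESCs than in untreated partial iPSCs, Cd68 by 0.95, Cd3e by 0.67 and Csf1r by 0.43. Of these, 2 had an unadjusted limma p below 0.05. In 2i iPSCs against untreated partial iPSCs they differed by -0.0041, 0.53 and 0.26. The defining marker Ptprc lay between 2.80 and 3.28 over the 7 arrays. The part of leukocyte markers was not tested. Icam1, the gene of the ligand, was also higher than in untreated partial iPSCs, by 4.50 in 2i iPSCs (limma adjusted p = 0.0016) and by 4.54 in ESCs (limma adjusted p = 0.0010).

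ESCs had 1 chain higher and 5 lower than untreated partial iPSCs, 6 of 25 against 15.9% of all genes tested (6.09% higher, 9.82% lower). Besides Itgal, Lama4 and Itgb4, the chains that changed were Lamb1, Itgb1 and Itgb2. The median log2 fold change was -0.71 over the chains and 0.00 over all genes. Both comparisons with partial iPSCs share the same 2 partial arrays. Fibroblast markers moved with the ESC contrast, 7 of 9 tested being lower in ESCs than in untreated partial iPSCs, and their part in these chains was not tested.

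Lamb1, the beta chain of the early embryonic laminin, was at 10.78 and 10.54 in 2i iPSCs, 9.38 and 9.49 in ESCs and 12.22 in MEFs, against 10.93 and 11.08 in untreated partial iPSCs. The ESC arrays were the lowest 2 of the block and the MEF array the highest. ESCs differed from untreated partial iPSCs by -1.57 (SE 0.19, limma adjusted p = 0.0082), while 2i iPSCs differed by -0.34 (limma adjusted p = 0.357) and did not pass. Lamc1, the gamma chain shared by most laminins, was at 9.94 and 9.92 in 2i iPSCs, 10.01 and 10.46 in ESCs and 9.54 in MEFs, against 9.95 and 9.70 in untreated partial iPSCs. Its values spanned 0.92 over the 7 arrays, and none of its differences passed the test. The 2 bright probe sets of Lamc1 differed in sign for 2i iPSCs against untreated partial iPSCs, at -0.21 and 0.10. Lama1, the alpha chain of the same trimer, was at 9.39 and 7.42 in 2i iPSCs, 7.78 and 8.29 in ESCs and 4.02 in MEFs, against 8.65 and 4.54 in untreated partial iPSCs. Untreated 2B1 lay among the pluripotent arrays and untreated 5C5 near the fibroblasts, and the differences of 1.81 for 2i iPSCs (95% interval -1.81 to 5.43) and 1.44 for ESCs (-2.18 to 5.06) did not pass the test.

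Itgb1, the beta chain shared by most laminin, collagen and fibronectin receptors, was at 9.77 and 9.96 in 2i iPSCs, 8.94 and 8.64 in ESCs and 11.88 in MEFs, against 10.58 and 10.44 in untreated partial iPSCs. Groups did not overlap, with ESCs lowest and MEFs highest, but 2i iPSCs against ESCs (1.08) did not pass the test (limma adjusted p = 0.0642). ESCs differed from untreated partial iPSCs by -1.72 (SE 0.21, limma adjusted p = 0.0078), and 2i iPSCs by -0.64 (limma adjusted p = 0.142). Itgb2, the beta chain of leukocyte integrins, was at 6.05 and 6.32 in 2i iPSCs, 4.54 and 4.30 in ESCs and 4.05 in MEFs, against 5.47 and 5.56 in untreated partial iPSCs. Its ESC difference was -1.09 (SE 0.20, limma adjusted p = 0.0260), opposite in sign to that of its partner Itgal. Itgb2 passed the filter on dim genes only through the 2i and untreated partial arrays, the 4 on which it is high, so a difference from ESCs was likewise built in. This call of Itgb2 was lost without any 1 array other than Nanog-GFP (limma adjusted p = 0.0548 to 0.0853) and with the 4 arrays compared alone (limma adjusted p = 0.0853), while those of Lama4, Lamb1, Itgb1 and Itgb4 in ESCs kept a limma adjusted p of at most 0.0470 without any 1 array.

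Apart from Itgb1, the tested chains of the fibronectin and vitronectin receptors gave no call in these comparisons. Itgav, the alpha chain of the vitronectin receptor, was at 11.19 and 11.59 in 2i iPSCs, and at 10.39 and 10.33 in ESCs, against 11.19 and 11.22 in untreated partial iPSCs. Its ESC difference of -0.84 missed the threshold (limma adjusted p = 0.0556) and passed it with a trend in the variance model (limma adjusted p = 0.0377). Itga5, the alpha chain of the fibronectin receptor, was at 7.20 and 7.17 in 2i iPSCs, and at 6.81 and 6.90 in ESCs, against 6.40 and 6.13 in untreated partial iPSCs. Its 2i difference of 0.92 also missed it (limma adjusted p = 0.0573) and passed with no filter on dim genes and with the 4 arrays compared alone (limma adjusted p = 0.0487 and 0.0494). Itgb5 was at 8.68 and 8.95 in 2i iPSCs, and at 9.61 and 8.50 in ESCs, against 9.85 and 10.41 in untreated partial iPSCs, and did not pass in any comparison. Lamb2, the laminin beta chain of synapses and the kidney filter, was at 7.44 and 7.41 in 2i iPSCs, 6.50 and 7.15 in ESCs and 9.36 in MEFs, against 7.76 and 8.47 in untreated partial iPSCs. Its ESC difference of -1.29 did not pass the test (limma adjusted p = 0.0640). Itgae, the alpha chain that binds Cdh1 on epithelial cells, lay between 5.45 and 6.81 in 2i iPSCs and ESCs, against 5.12 and 4.84 in untreated partial iPSCs, and passed in no comparison.

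**Figure D2:**
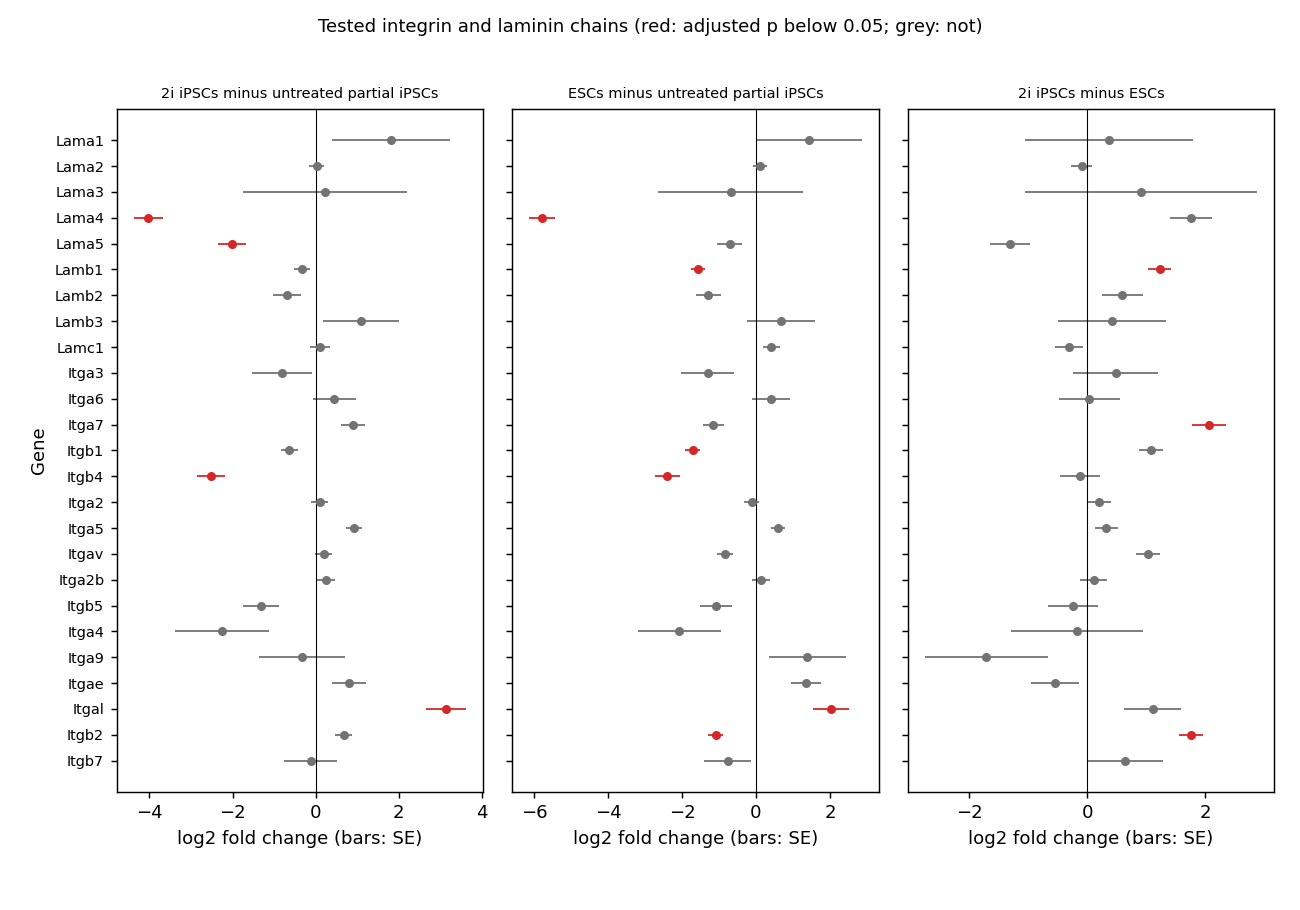
Log2 fold changes of the 25 tested integrin and laminin chains, with bars for the SE, in 2i iPSCs minus untreated partial iPSCs (left), ESCs minus untreated partial iPSCs (middle) and 2i iPSCs minus ESCs (right), and called chains in red. Lama4 and Itgb4 lie to the left of 0 in both comparisons with partial iPSCs, and all 3 red points of the right panel lie above 0.

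Set against ESCs, the 2i iPSCs had Itgb2, Itga7 and Lamb1 higher and no chain lower, 3 of 25 against 3.85% of all genes tested (3.69% higher, 0.158% lower). The median log2 fold change was 0.37 over the chains and 0.00 over all genes. Itga7, a laminin-binding alpha chain of muscle, was at 7.25 and 7.35 in 2i iPSCs, against 4.97 and 5.52 in ESCs. It was at 7.96 in MEFs and at 6.65 and 6.13 in untreated partial iPSCs, so the 2i arrays lay between the fibroblasts and the partial clones. Its fold change against ESCs was 2.06 (SE 0.29, limma adjusted p = 0.0250). Itgb2 differed by 1.76 (SE 0.20, limma adjusted p = 0.0144) and Lamb1 by 1.23 (SE 0.19, limma adjusted p = 0.0357). Itgb2 was tested only because the 2i and untreated partial arrays passed the filter on dim genes. Some difference from ESCs was therefore built into its call, and its place among the 3 chains carries that limit. Lamb1 lost its call with any 1 of the 6 arrays left out (limma adjusted p = 0.0637 to 0.341), with the mean of its probe sets (0.77, limma adjusted p = 0.152) and with the 4 arrays compared alone (limma adjusted p = 0.0654). Itga7 and Itgb2 lost theirs with either 2i array left out (limma adjusted p = 0.130 to 0.241). Fibroblast markers moved with this contrast, with 8 of 9 tested higher in 2i iPSCs than in ESCs, and their part in Itga7 and Lamb1 was not tested. Itgb2 was at 4.05 in MEFs, below both 2i arrays. Endoderm markers, a list of 13, had summed linear signals of 1989 and 1562 in 2i iPSCs, against 585 and 415 in ESCs. The same sum was highest in MEFs, at 5511, and was 1689 and 1034 in untreated partial iPSCs. Of this list, Pdgfra, Dab2, Thbd and Gata6 were brightest in MEFs, at 11.15, 10.49, 10.41 and 6.81. Of the 11 endoderm markers tested, limma called 2 higher in 2i iPSCs than in ESCs, Pdgfra and Afp, and 9 did not pass. The part of the endoderm markers was not tested either.

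**Figure D3:**
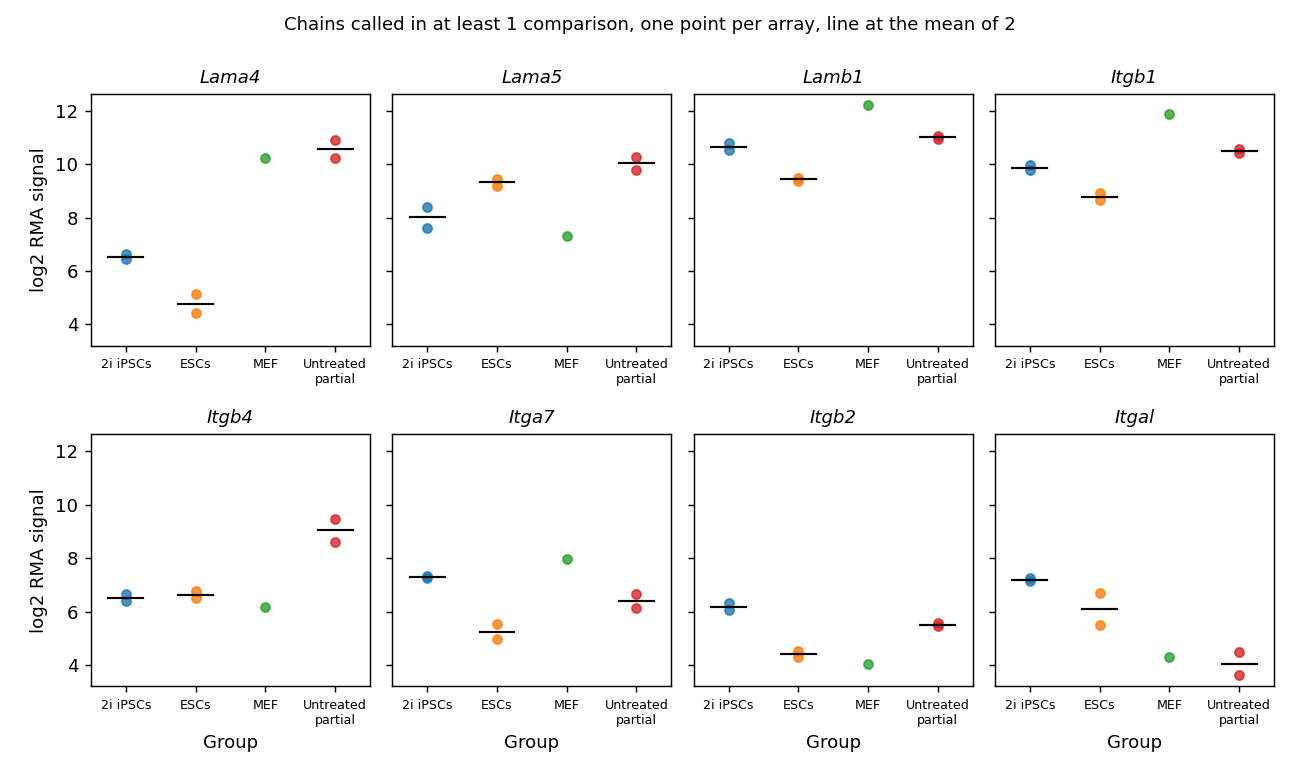
Log2 RMA signal of the 8 chains called in at least 1 comparison, one point per array and a line at the mean of a group of 2. The partial iPSC points of Lama4 and Itgb4 lie above all 2i and ESC points, and the ESC points of Lamb1 and Itgb1 are the lowest of their panels.

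Other genes of the adhesion machinery were taken from a list of 37, of which 33 were on the array and 32 were tested. In 2i iPSCs against untreated partial iPSCs, Icam1 and Tln2, a talin, rose and Thbs1 fell. In ESCs against untreated partial iPSCs, 3 rose (Icam1, Tln2 and Nid2, a basement membrane linker) and 7 fell. Of these 7, the matrix proteins Tnc, Thbs1, Ccn1 and Ccn2 had fold changes of -4.80, -4.67, -5.39 and -1.41, and Vcam1, a ligand of integrins with Itga4, had -6.43. The focal adhesion proteins Parva and Zyx had -3.79 and -2.04. In 2i iPSCs against ESCs, 4 rose, Vcam1 by 7.60, Tnc by 4.57, Thbs1 by 2.95 and Zyx by 2.33, and none fell. The share of these genes called was 9.38% for 2i against partial, 31.2% for ESC against partial and 12.5% for 2i against ESC, on limma's adjusted p, beside 6.00%, 15.9% and 3.85% of all genes tested in the same comparisons. Without either 2i array, limma called 1 higher and 0 lower in 2i iPSCs against untreated partial iPSCs, 1 higher and 4 lower in ESCs against untreated partial iPSCs, and 0 in 2i iPSCs against ESCs. Without untreated 2B1 the first of these comparisons had 1 higher and 2 lower, without untreated 5C5 it had 0 lower, and without either ESC array it had 4 higher and 2 lower. Without Nanog-GFP, 11 were lower in ESCs than in untreated partial iPSCs and 8 higher in 2i iPSCs than in ESCs.

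Untreated 2B1 and 5C5 themselves differed in laminin and integrin chains. Between them, 3 of 25 chains were at least 2-fold higher in 2B1 and 4 lower, against 4.41% and 6.22% of all genes, and with 1 array per clone there is no test. Lama1, the alpha chain of the early laminin, was at 8.65 in 2B1 and 4.54 in 5C5, a difference of 4.11. Itga4, which binds Vcam1 and fibronectin, was at 8.99 in 2B1 and 5.40 in 5C5. Itga6 was 1.57 higher in 2B1. In the other direction, Lama3, the alpha chain of the laminin that anchors epithelia, was at 6.10 in 2B1 and 9.95 in 5C5. Itgb7, a leukocyte beta chain that pairs with Itga4 or Itgae, was at 7.58 in 2B1 and 9.54 in 5C5. Itga3, a laminin-binding alpha chain of epithelia, was at 7.95 in 2B1 and 9.86 in 5C5. All 3 of these chains were higher in the clone with more epithelial marker signal. Itga9, the fourth chain lower in 2B1, binds tenascin and was at 4.91 in 2B1 and 6.02 in 5C5. The epithelial cadherin Cdh1 was at 7.40 in 2B1 and 11.87 in 5C5. The 6 epithelial markers had summed linear signals of 576 in 2B1 and 7066 in 5C5, so their sum moved with these chains here. Of these markers, Krt5 (5.67 and 5.59), Krt14 (4.88 and 5.21) and Krt18 (3.63 and 3.71) differed little. In ESCs the sum was 4093 in Nanog-GFP and 6273 in EBRTcH3. Lama3, Itga3 and Itgb7 differed there by 4.64, 1.21 and -0.24 (Nanog-GFP minus EBRTcH3). In 2i iPSCs the sum was 3150 and 3358, and these chains differed by 2.01, -0.068 and 0.21 (2B1 minus 5C5). The part of the epithelial markers was not tested. Of 12 chains with more than 1 bright probe set, 9 had the same sign in all of them here, the exceptions being Itga5, Itgae and Itgav.

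After conversion fewer chains separated the clones. Between the 2i arrays, Lama1 and Lama3 were at least 2-fold higher and Lamb3 lower in 2B1, against 0.482% higher and 1.25% lower among all genes. Lama1 was at 9.39 in 2i 2B1 and 7.42 in 2i 5C5, and Lama3 at 9.25 in 2i 2B1 and 7.24 in 2i 5C5. Lamb3, the beta chain that partners Lama3, was at 5.26 in 2i 2B1 and 6.72 in 2i 5C5. Lamb3 passed the filter on dim genes only through 2i 5C5 and EBRTcH3, the 2 arrays on which it is highest. Some difference between the 2i clones was therefore built into its being counted. Itga4 was at 4.92 and 4.96 in 2i iPSCs, below both untreated clones, with a difference of -4.06 from untreated 2B1. Compared with its own untreated clone, 2i 2B1 had 2 chains at least 2-fold higher and 5 lower (11.2% and 8.85% of all genes), and 2i 5C5 had 6 higher and 8 lower (11.2% and 9.67%). Lama3 moved in opposite directions in the clones, with a 2i minus untreated difference of 3.16 in 2B1 and -2.70 in 5C5. Itgb7 did so too, with 0.96 in 2B1 and -1.20 in 5C5. The difference between the clones could not be tested with 1 array each.

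The ESC lines also differed, with 4 chains at least 2-fold higher and 2 lower in Nanog-GFP than in EBRTcH3, against 9.04% and 6.77% of all genes. Lama3 was at 9.65 in Nanog-GFP and 5.02 in EBRTcH3, the widest gap among the 25 chains. Itga9 was at 5.28 in Nanog-GFP and 8.42 in EBRTcH3. Itga3, Itgal and Itgb5 were also higher in Nanog-GFP, by 1.21, 1.19 and 1.11, and Lamb3 was at 4.37 in Nanog-GFP and 6.78 in EBRTcH3. Since Lamb3 passed the filter on dim genes only through EBRTcH3 and 2i 5C5, some of this gap was built in. Lama3 was thus the only chain at least 2-fold apart within each pair of clones or lines, among the untreated, the 2i and the ESC arrays.

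MEFs had 7 tested chains at least 2-fold higher than both untreated partial clones and 4 lower, against 9.90% and 11.3% of all genes. The higher ones were Lama2, Lamb1, Itga5, Itga7, Itgav, Itgb1 and Itgb5. Lama2, the alpha chain of muscle and nerve laminin, was at 8.71 in MEFs against 5.49 and 5.29 in untreated partial iPSCs, and between 5.34 and 5.54 in 2i iPSCs and ESCs. Itga5 was at 8.80 in MEFs, against 6.40 and 6.13 in untreated partial iPSCs. Itgb5, which pairs with Itgav, was at 11.82 in MEFs, against 9.85 and 10.41 in untreated partial iPSCs. Itgav was at 12.51 in MEFs, above the other 6 arrays of the block. The lower ones were Lama3 (4.57 in MEFs), Lama5, Itgb4 and Itgb2. Itgb2 was counted only because the untreated partial and 2i arrays passed the filter on dim genes. Some difference of MEFs from the partial clones was therefore built into its place here. Lama1 was at 4.02 in MEFs, low like untreated 5C5, and did not count as lower than both clones. Itga4 was at 8.54 in MEFs, near untreated 2B1 and above 5C5. Another 3 chains, left out of the count as dim, had at least a 2-fold difference on their brightest probe set too. Itga8, whose receptor binds RGD motifs, was at 8.37 in MEFs, against 4.60 and 3.69 in untreated partial iPSCs. Itga1, a collagen-binding chain, was at 7.35 in MEFs, against 4.19 and 3.88. Itgb8, which binds latent TGF-beta with Itgav, was at 5.69 in MEFs, against 3.61 and 3.64. Itgb3, which pairs with Itgav or Itga2b, was flat on its brightest probe set, at 5.35 in MEFs, against 5.01 and 4.96, but its other probe set was at 7.17 in MEFs, against 4.94 and 4.69. There is 1 MEF array, so no test was made. With the mean of all probe sets of a gene in place of the brightest, 4 chains were higher.

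Among the transduced arrays, the chains at least 2-fold from empty vector were Lama1, Itga6, Itga4, Itga7, Lama3, Itgb7 and Itga3. The array labelled Cnot1 had 3 chains higher and 3 lower, against 4.15% and 5.87% of all genes. That labelled Cnot2 also had 3 and 3 (2.87% and 3.89% of all genes), as did that labelled Cnot123 (3.72% and 8.43%). The array labelled Cnot3 had 2 higher and 3 lower (2.49% and 5.19%), that labelled Trim28 had 1 and 1 (0.963% and 1.52%), and that labelled Nanog had 0 and 0 (0.561% and 0.869%). With 1 array per condition, none of these differences has a test. Lama1 was at 7.77 with Cnot1, 7.56 with Cnot2, 7.71 with Cnot3, 7.85 with Trim28, 8.26 with Cnot123 and 4.78 with Nanog, against 5.66 with empty vector. All 5 arrays labelled Cnot or Trim28 were above empty vector, and the array labelled Nanog was below it. Itga6 lay between 11.05 and 11.67 on these 5 arrays and at 10.36 with Nanog, against 10.09 with empty vector. Itga4 lay between 6.27 and 7.20 on the 5 arrays and at 5.15 with Nanog, against 5.69 with empty vector. Itga6 and Itga4 thus lay above empty vector on all 5, though Itga6 did not reach 2-fold with Trim28 and Itga4 reached it with Cnot1 and Cnot2 only.

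The other 3 chains ran the other way. Lama3 was at 7.01 with Cnot1, 7.92 with Cnot2, 8.20 with Cnot3, 10.14 with Trim28, 6.46 with Cnot123 and 10.65 with Nanog, against 9.96 with empty vector. All 4 arrays labelled with a Cnot factor were lower than empty vector, and those labelled Trim28 and Nanog were not. Itgb7 lay between 6.67 and 7.54 on the 5 arrays labelled Cnot or Trim28 and at 8.38 with Nanog, against 8.78 with empty vector. Itga3 lay between 6.98 and 8.06 on the 5 arrays and at 8.79 with Nanog, against 8.71 with empty vector. With the mean of all probe sets, 1 chain was lower with Cnot2, 1 was lower with Cnot3 and 2 were higher with Trim28. Itga7 was 1.48 higher with Cnot123 and less than 2-fold from empty vector on the other arrays.

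**Figure D4:**
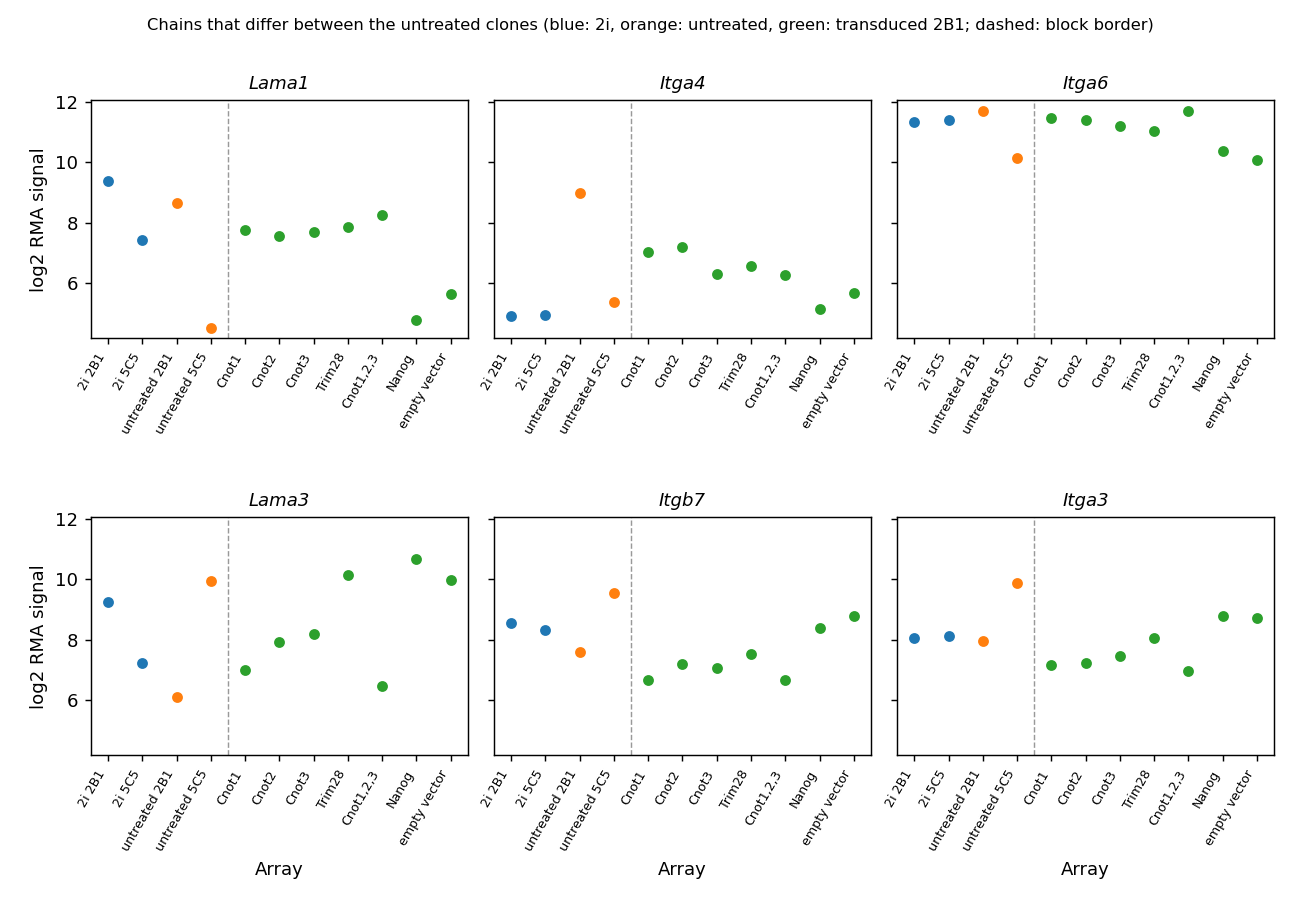
Log2 RMA signal of 6 chains that differ between the untreated clones, one point per array. The 2i iPSCs are in blue, untreated partial iPSCs in orange and transduced 2B1 in green. A dashed line separates the blocks, which were treated as normalized separately. In the top row (Lama1, Itga4, Itga6) untreated 2B1 and the Cnot and Trim28 arrays lie above untreated 5C5 and the Nanog and empty vector arrays, and in the bottom row the order is turned round except for Lama3 with Trim28 (10.14).

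The empty vector array itself stood apart from untreated 2B1. With 1 such array, an effect of the vector, drift of the culture and exchanged arrays cannot be told apart, and every count against empty vector rests on it. With the 14 arrays quantile normalized together, across the blocks, the empty vector array had 3 chains at least 2-fold higher and 8 lower. Among all genes, 6.22% were higher and 8.58% lower. On the deposited values the counts were 2 higher and 8 lower, against 4.68% and 12.1% of all genes. Lama3 differed by 4.04 and Itgb7 by 1.44 (empty vector minus untreated 2B1), while Lama1 had -2.77, Itga4 -3.07 and Itga6 -1.41, the directions in which untreated 5C5 differed from untreated 2B1. Lama4 was the third higher chain, at 1.18. Itgb2, Itga7, Lamc1, Itga5 and Itgal were also lower, with differences between -1.90 and -1.19. Itgb2 passed the filter on dim genes only through the untreated partial and 2i arrays, so some of its difference was built in. Against untreated 2B1, the array labelled Nanog had 4 chains higher and 7 lower (6.06% and 8.36% of all genes). The array labelled Cnot1 had 2 and 2 (2.68% and 5.35%), Cnot2 had 2 and 2 (3.32% and 5.26%), Cnot3 had 2 and 3 (2.32% and 5.38%), Trim28 had 2 and 4 (4.59% and 7.16%) and Cnot123 had 0 and 5 (2.16% and 6.25%).

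With untreated 2B1 in place of empty vector, Lama1 and Itga6 were not at least 2-fold higher on any transduced array. Lama1 was below untreated 2B1 on all 5 arrays labelled Cnot or Trim28, with differences between -0.85 and -0.080, so its sign turned with the control. On the same 5 arrays Itga6 differed by -0.42 to 0.19, Itgb7 by -0.62 to 0.23 and Itga3 by -0.64 to 0.38, none of them 2-fold. Itga4 was lower on all 6, with differences of -1.68 for Cnot1, -1.53 for Cnot2, -2.41 for Cnot3, -2.17 for Trim28, -2.43 for Cnot123 and -3.56 for Nanog. So the sign of Itga4 turned too on the 5 arrays labelled Cnot or Trim28. Lama3 was higher than in untreated 2B1 by 1.12 with Cnot1, 2.01 with Cnot2, 2.31 with Cnot3, 4.24 with Trim28, 0.59 with Cnot123 and 4.73 with Nanog, where all but Trim28 and Nanog were lower than empty vector. Epithelial markers had summed linear signals of 592 with Cnot1, 1213 with Cnot2, 1093 with Cnot3, 1882 with Trim28, 202 with Cnot123 and 2415 with Nanog, against 4061 with empty vector. Cdh1 was at 3.34 with Cnot123 and between 7.02 and 9.66 on the other 5 arrays, against 10.17 with empty vector. Their part in these chains was not tested. Probe sets of Itga3 disagreed in sign for empty vector minus untreated 2B1, from -0.56 to 0.76.

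Several chains that separated the cell states varied less in the transduced block. Lama4 lay between 10.44 and 11.67 there, Lamb1 between 10.36 and 11.03, Itgb1 between 9.73 and 10.07 and Itgb4 between 7.14 and 7.77. Of the 8 chains called between cell states, Itga7 with Cnot123 was the only one at least 2-fold from empty vector on any transduced array. Among all tested chains, the narrowest ranges over the 14 arrays were those of Itga2b, the alpha chain of the platelet fibrinogen receptor, between 6.74 and 7.52, and Itga2, a collagen-binding chain, between 4.96 and 5.76. Itgam and Itgax, alpha chains of myeloid cells, and Itgb6, a beta chain of epithelia, stayed at or below 4.58 on every array, under the table median of 5.42. Itga10 and Lamc3 stayed at or below 5.49, as did the brightest probe set of Itgb3.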

How the data were processed

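Total RNA of 14 mouse cell samples was prepared with TRIzol and hybridised as biotin-labelled cRNA, 1 Affymetrix array of 45101 probe sets per sample, per the labels' protocols. The deposited values are log2 probe set summaries that the authors made with RMA and the affy package, per the submitters' processing notes, which name no version here. The values form 2 blocks of 7 arrays with unlike distributions and were treated as normalized separately.

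Genes were named from the platform annotation for the 34945 probe sets with 1 gene. Of the rest, 932 had several genes, 9160 had none and 64 were controls, and all of these were left out. Each gene took its brightest probe set. Genes reaching the table median, 5.42, on at least 2 arrays were tested (12663 of 18193). The 6 arrays of 2i iPSCs, ESCs and untreated partial iPSCs were fitted together by lmFit and eBayes of the limma package (version 3.58.1, under R 4.3.3), with 3 residual and 2.25 prior degrees of freedom, two-sided, with Benjamini-Hochberg adjustment over all genes tested. The script was tested on simulated data. Conditions with 1 array have no test, and log2 differences of at least 1 were counted. The number of arrays limits the precision.

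Values are given for Lama1, Lamb1 and each chain called by limma, at least 2-fold from both partial clones in MEFs, or at least 2-fold from empty vector on any transduced array, and ranges or single values for others. The chains and gene lists were chosen with earlier results of these data known. Each clone gave both an untreated and a 2i sample, so these arrays are paired, and their deviations from the group means had a correlation of 0.11 across 12663 genes. Alternatives changed the normalization, the filter, the arrays in the fit, the variance model and the probe set rule, used the clone as a replicate block, or left out each array. Untreated 2B1 as control for the transduced arrays was added after the data were seen. Promoter windows came from RefSeq, build GRCm38.p6.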

Additional observations from a re-analysis of the deposited data

Results flagged for a closer look

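The effect of 2i conversion ran in opposite directions in the clones for Lama3 and Itgb7, by at least 0.5 on the log2 scale in each. The 2i minus untreated difference of Lama3 was 3.16 in 2B1 and -2.70 in 5C5. That of Itgb7 was 0.96 in 2B1 and -1.20 in 5C5. The share of all tested genes that ran in opposite directions is not given here, so this is not shown to be particular to these chains. With 1 array per clone and state, the difference between the clones was not tested.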

How the results depend on the processing

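Limits come from the number of arrays: 2 per group, 1 per clone or line, and low signals near background. In the 3 limma comparisons, the named chains kept their direction and their side of the threshold in 640 of the recalculated values. In 39 the call was lost and in 10 a call was gained. In 25 the sign turned, each in a chain that the report does not call in that comparison. The count of chains higher in ESCs than in untreated partial iPSCs, 1 in the report, was 0 with quantile normalization again, with arrays centred on the median, with no filter on dim genes and with the 4 arrays compared alone. The count higher in 2i iPSCs than in untreated partial iPSCs was 2 with no filter on dim genes and 2 with those 4 arrays alone, the added chain being Itga5. With a trend in the variance model Itgav was called lower in ESCs than in untreated partial iPSCs, giving 6 chains lower, and with the mean of all probe sets Lamb1 was not called in 2i iPSCs against ESCs, giving 2 higher. For the other adhesion genes, the 4 arrays alone gave 4 higher and 2 lower in 2i iPSCs, and 1 higher and 4 lower in ESCs, each against untreated partial iPSCs. The mean of all probe sets gave 4 chains higher in MEFs, 1 lower with Cnot2, 1 lower with Cnot3 and 2 higher with Trim28. Untreated 2B1 as control gave 2 higher and 4 lower with Trim28, 0 and 5 with Cnot123, and 4 and 7 with Nanog. The clone as a replicate block, in 2i iPSCs against untreated partial iPSCs, gave 1 chain higher and 3 lower and changed no other call among the chains, and it gave 3 other adhesion genes higher and 1 lower.

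Leaving out each array in turn gave 0 to 2 chains higher and 0 to 3 lower in 2i iPSCs against untreated partial iPSCs, 0 to 2 higher and 4 to 6 lower in ESCs against untreated partial iPSCs, and 0 to 2 higher and 0 to 1 lower in 2i iPSCs against ESCs. The other adhesion genes gave 1 to 4 higher and 0 to 2 lower, 1 to 2 higher and 4 to 11 lower, and 0 to 8 higher and 0 lower in the same comparisons. Without either 2i array no chain was called in the comparisons that use it, and the spread of the single 2i array left is then taken from the other groups.

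The sign of Lama2 in 2i iPSCs against untreated partial iPSCs turned with quantile normalization again (-0.029) and with centring (-0.032), and that of Itga6 in 2i iPSCs against ESCs turned with centring (-0.0024). The other turns came with an array left out. In 2i iPSCs against untreated partial iPSCs the fold changes ran from -1.77 to 0.14 for Itga3, -0.34 to 1.23 for Itga6, -0.0093 to 0.39 for Itgav, -1.10 to 0.85 for Itgb7, -0.25 to 3.86 for Lama1, -0.079 to 0.12 for Lama2 and -1.70 to 2.15 for Lama3. In ESCs against untreated partial iPSCs they ran from -0.38 to 1.19 for Itga6, -1.75 to 0.21 for Itgb7, -0.62 to 3.49 for Lama1 and -3.003 to 1.63 for Lama3. In 2i iPSCs against ESCs they ran from -0.12 to 1.08 for Itga3, -0.044 to 0.12 for Itga6, -0.25 to 0.012 for Itgb4, -0.80 to 0.31 for Itgb5, -0.62 to 1.36 for Lama1 and -1.40 to 3.23 for Lama3. The cause of these changes was not tested.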
